A study of Mus musculus with 15 samples.

Results

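The genes described here are 40 mouse genes of DNA replication and S phase, followed across RNA-seq libraries of colonic crypts. They were chosen by symbol as a list of the licensing, fork, nucleotide supply, E2F and chromatin assembly genes that cycling cells switch on for S phase. The list was set with earlier results of these data known. All 40 were found among the 32939 genes of the table, each under 1 gene ID, and all 40 passed the filter on low counts that left 17404 genes for testing. Every library came from wild-type mice that had received an adeno-associated virus (AAV) carrying a short hairpin RNA. The NL-shGFP mice ate a normal diet, had a normal liver and carried AAV-shGFP, a hairpin against a gene that mice lack. The FL-shGFP mice carried the same virus but ate the CDAA diet and had a fatty liver. The FL-shAlpl mice also ate CDAA and had a fatty liver, and their virus was AAV-shAlpl, directed at the alkaline phosphatase gene Alpl. Each group held 5 samples. CDAA stands for a choline-deficient feed whose protein is replaced by defined L-amino acids. Diet and liver state were changed together, so they cannot be told apart, and no mice with a normal liver were given AAV-shAlpl. The labels name neither the cells that the virus reached nor the age, sex or batch of the mice.

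In the colon, stem cells and transit-amplifying cells in the lower crypt divide, while the absorptive and goblet cells above them have left the cell cycle. Before S phase, the origin recognition complex with Cdc6 and Cdt1 loads the ring-shaped Mcm helicase onto DNA, and Cdc45 and the GINS complex then switch the ring on. Polymerases, the sliding clamp and nucleotide-making enzymes copy the DNA behind it, and chromatin assembly factors pack the new strands. Most of these genes are transcribed at the passage from G1 to S phase by E2F factors, which the retinoblastoma family holds back until cyclin D and cyclin E kinases release them.

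Promoter windows running from 250 bases before to 50 bases after the start site, taken from RefSeq (build GRCm38.p6), covered 34 of the 40 members, and Mcm4, Pole, Exo1, Gins1, Gins2 and Ccne2 were not among them. An E2F motif, searched as TTTCCCGC, TTTCGCGC, TTTGCCGC or TTTGGCGC on both strands, was present in 15 of the 34 members (44.1%). The same search found it in 4.27% of the 11861 tested genes in that collection and in 2.26% of its 32851 windows. The CCAAT box (letters CCAAT, both strands) was present in 22 of the 34 (64.7%), against 42.1% of the tested genes. The cell cycle homology motif of late cell cycle genes, searched as TTTGAA on both strands, was present in 6 of the 34 (17.6%), against 15.3% of the tested genes. The plot of motif positions places the E2F letters of the 15 members on both sides of the start. A match describes letters and is not evidence of binding. The following stretches show the E2F letters in capitals (in either orientation, so GCGGGAAA is TTTCCCGC on the other strand) with 25 bases on each side, or fewer where the start site comes first, for the members that changed in both comparisons with FL-shGFP and hold a match before the start. Each runs 5′ to 3′ along the gene's own strand, and Mcm5 and Mcm6 each hold a pair of matches on opposite strands that overlap. The start site that the window was built on was an end of the RefSeq gene for Mcm6, Gins3 and Dtl. It was not for Mcm5, Mcm7, Orc1, Cdc6, Pola1 and Uhrf1, so their positions depend on the start chosen.
Mcm5, chr8:75109331-75109392, plus strand: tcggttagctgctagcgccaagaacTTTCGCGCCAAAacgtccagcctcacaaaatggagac
Mcm6, chr1:128359720-128359840, minus strand: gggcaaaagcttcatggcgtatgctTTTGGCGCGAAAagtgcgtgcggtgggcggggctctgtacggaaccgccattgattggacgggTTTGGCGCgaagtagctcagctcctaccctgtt
Mcm7, chr5:138172016-138172073, minus strand: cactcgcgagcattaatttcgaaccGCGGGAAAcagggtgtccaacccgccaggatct
Orc1, chr4:108579402-108579453, plus strand: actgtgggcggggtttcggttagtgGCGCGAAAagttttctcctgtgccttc
Cdc6, chr11:98907988-98908045, plus strand: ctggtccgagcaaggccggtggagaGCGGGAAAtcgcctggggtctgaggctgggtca
Gins3, chr8:95633493-95633550, plus strand: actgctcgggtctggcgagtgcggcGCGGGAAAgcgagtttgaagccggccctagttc
Pola1, chrX:93632261-93632318, minus strand: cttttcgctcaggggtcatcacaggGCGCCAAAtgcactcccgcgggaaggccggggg
Uhrf1, chr17:56304103-56304160, plus strand: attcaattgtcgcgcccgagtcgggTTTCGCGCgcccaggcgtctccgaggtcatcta
Dtl, chr1:191575545-191575577, minus strand: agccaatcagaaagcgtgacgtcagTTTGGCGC

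**Figure D1:**
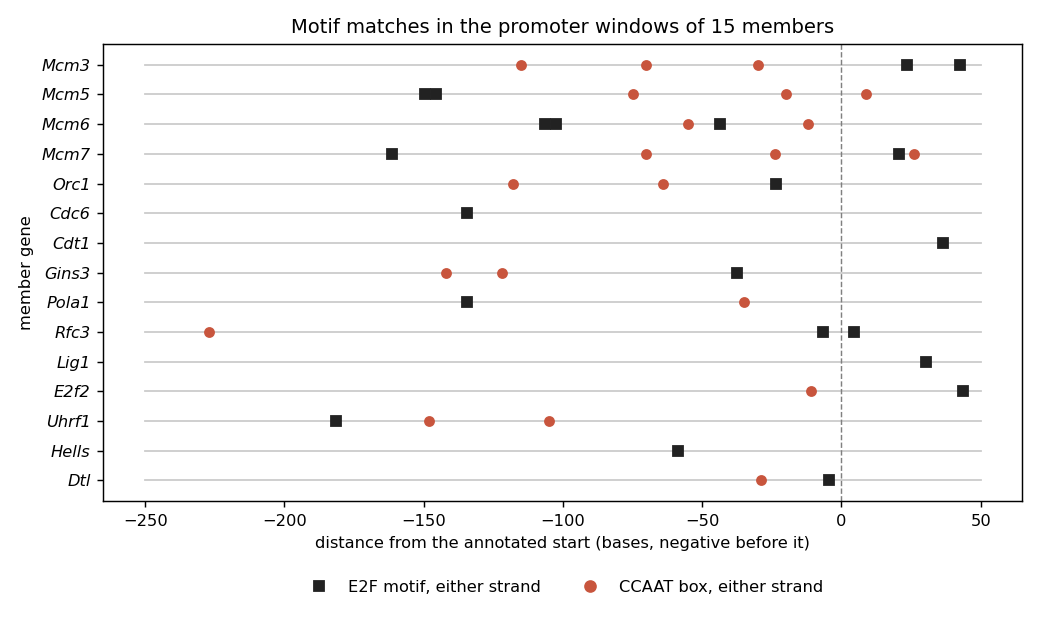
Position of E2F motif matches (black squares) and CCAAT boxes (red circles), on either strand, in the promoter windows of the 15 members with an E2F match, in bases from the annotated start (x axis, from 250 before to 50 after), with 1 row per gene. E2F letters lie on both sides of the start, and the overlapping pairs in Mcm5 and Mcm6 show as joined squares.

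Library totals ran from 33272941 to 41352922 counts for NL-shGFP, from 37490405 to 51669018 for FL-shGFP and from 42071168 to 58590251 for FL-shAlpl. Mitochondrially encoded genes took 28.0% to 37.5%, 13.7% to 21.5% and 14.8% to 24.3% of the counts in the same order. Alpl, the gene targeted by the hairpin, had 0 to 2 counts per NL-shGFP library, 14 to 25 per FL-shGFP library and 0 to 6 per FL-shAlpl library, so its RNA was scarce in crypts and lower with AAV-shAlpl than with AAV-shGFP on the CDAA diet (log2 fold change -3.16 ± 0.63, edgeR adjusted p = 0.00197). Among NL-shGFP libraries, replicates 3 and 4, and 1 and 2, differed less from each other than other pairs did, but by more than sampling noise, and all were kept as separate samples. The lowest count of any member in any library was 18 (Exo1), and mean FPKM ran from 0.947 in Exo1 to 43.7 in Pcna. By the GENCODE M21 annotation, 13 of the 40 share exon bases with another gene, nearly always on the other strand, and the share exceeds 50% in Fen1, Gins2 and Chaf1a. The strand setting of the counting is not given in the sources used here. For these 3 it is therefore not known how reads from the shared bases were counted, and reads of the other gene may be among them.

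Most replication genes were lower in FL-shGFP than in NL-shGFP and higher in FL-shAlpl than in FL-shGFP. The words fell and rose stand below for such differences between parallel groups, not for changes over time. Against NL-shGFP, 30 of the 40 members were lower in FL-shGFP and none was higher by edgeR's quasi-likelihood test at a Benjamini-Hochberg adjusted p of 0.05, while 21.6% of all tested genes were called lower and 46.7% were called in either direction. All 40 fitted log2 fold changes were below 0, from -2.06 (Exo1) to -0.37 (E2f2), with a median of -1.17 beside a median of -0.0016 over all tested genes. For 31 members every FL-shGFP library lay below every NL-shGFP library, which held for 16.2% of all tested genes. The 30 became 19 without FL-shGFP replicate 1, with library totals alone or with no filter on low counts, and 15 with the closest NL-shGFP libraries summed. Over all tested genes, whose number differed between fits, the 3752 called lower became 2980, 2347, 3359 and 2728 in the same order. Against FL-shGFP, 37 of the 40 were higher in FL-shAlpl and none was lower, beside 18.0% of tested genes called higher and 36.0% called in either direction. The 37 became 24 in a fit of only the 2 groups and 25 without FL-shAlpl replicate 1. Over all tested genes, the 3141 called higher became 2001 and 2475 in the same order. The members' median log2 fold change was 1.31, from 0.54 (Slbp) to 2.04 (Exo1). The groups were separate for only 2 members, E2f2 and Slbp, beside 7.63% of all tested genes. No member had all of FL-shAlpl below all of FL-shGFP, as 9.29% of tested genes did. These comparisons share the FL-shGFP libraries, so the values of that group enter both. In whole crypt RNA, fewer cells in S phase and less of these RNAs per cell cannot be told apart.

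By pattern, 29 members were lower in FL-shGFP than in NL-shGFP and higher in FL-shAlpl than in FL-shGFP. Another 8 passed only in the second comparison, Mcm10 passed only in the first, and Rrm2 and Tk1 passed in neither. Between FL-shAlpl and NL-shGFP none of the 40 passed with edgeR or DESeq2, beside 17.4% of tested genes called by edgeR (9.31% higher and 8.12% lower). None had an unadjusted p under 0.05 by either, beside 5537 of all 17404 tested genes by edgeR. The median standard error in this comparison was 0.38 for the members and 0.22 over all tested genes. No member had groups that did not overlap there, beside 7.54% of tested genes with all of FL-shAlpl above NL-shGFP and 7.01% with all of it below. There the median log2 fold change of the members was 0.16, beside 0.052 over all tested genes. Of the 40, 31 were fitted above 0 and 9 below, in a range from -0.32 (Gins3) to 0.40 (Rfc4). Medians by role ran from -0.089 for the genes that activate the helicase to 0.24 for the helicase ring. The 95% intervals of single members reached from -1.12 to 1.34 in all, so differences of about 2-fold in either direction lie inside some of them. Expressed as group means, members stood at 23.7% to 77.2% of their NL-shGFP mean in FL-shGFP (median 44.3%) and at 79.9% to 132% in FL-shAlpl (median 112%).

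**Figure D2:**
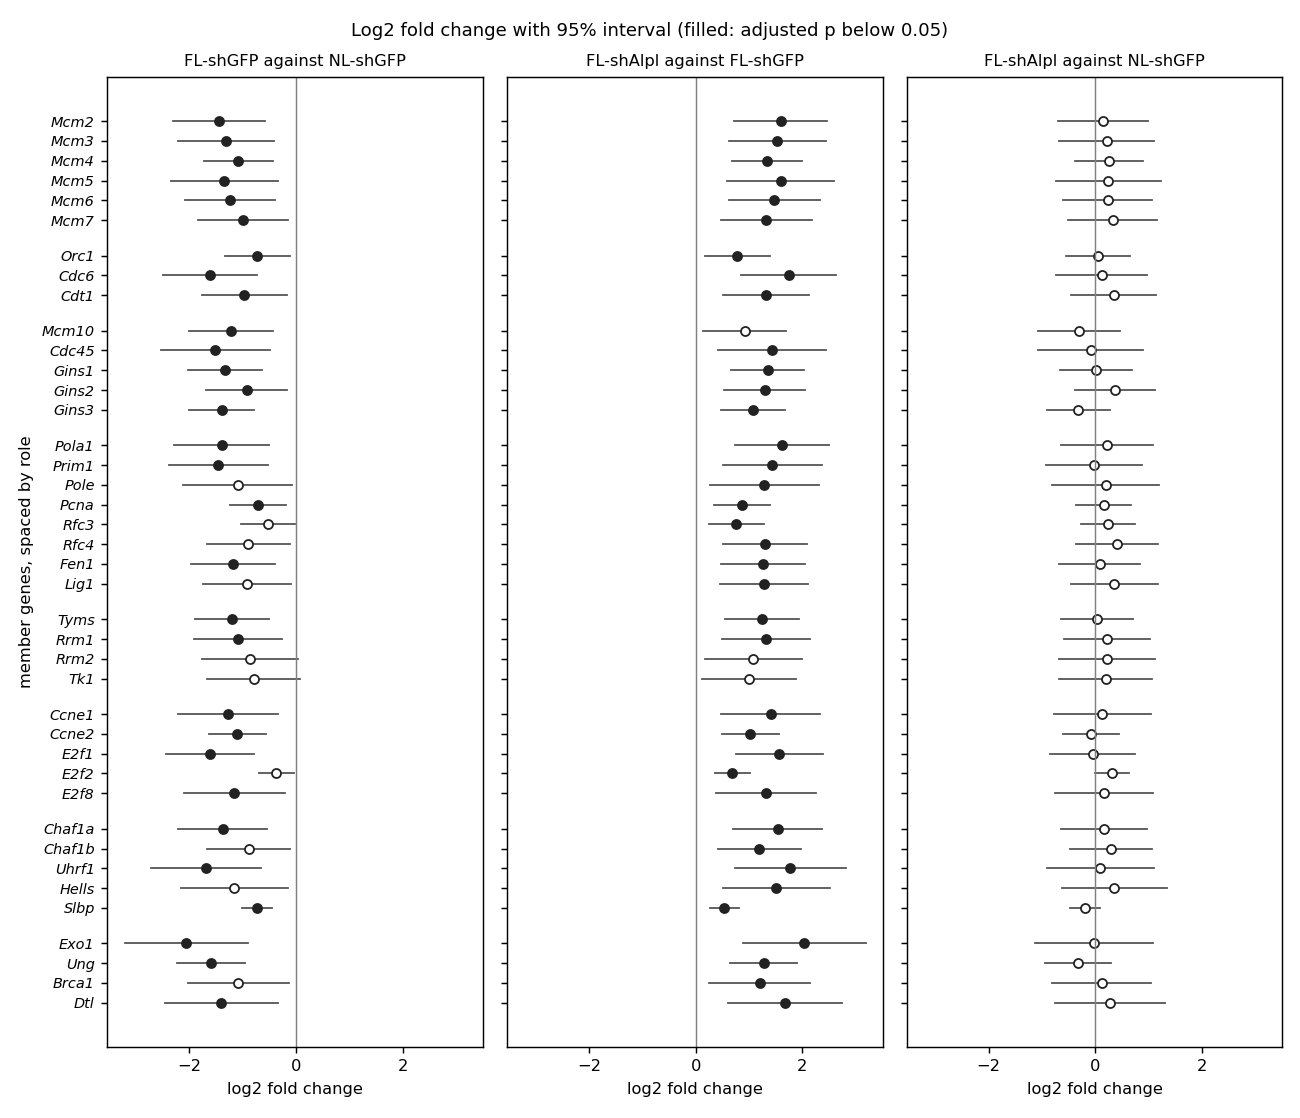
Log2 fold change (x axis) of each of the 40 members (rows, spaced by role) in the 3 comparisons, with 95% intervals from edgeR and filled points at an adjusted p below 0.05. All 40 points lie below 0 for FL-shGFP against NL-shGFP and above 0 for FL-shAlpl against FL-shGFP, and the open points for FL-shAlpl against NL-shGFP lie on both sides of 0.

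The spread within the CDAA groups was wide and went the same way for most members. The median member stood at 110%, 112%, 92.4%, 95.4% and 89.8% of its NL-shGFP mean in NL-shGFP replicates 1 to 5, at 28.5%, 40%, 59.7%, 15.1% and 74.5% in FL-shGFP, and at 169%, 79.1%, 90.2%, 158% and 52.7% in FL-shAlpl. Replicate 4 was the lowest FL-shGFP library for 36 of the 40 members and replicate 5 the highest for 38. In FL-shAlpl, replicate 5 was the lowest for 39 members, while replicate 1 was the highest for 23 and replicate 4 for the other 17. All 40 members exceeded every NL-shGFP library in FL-shAlpl replicate 1, and 34 did so in replicate 4. In FL-shAlpl replicates 2, 3 and 5, by contrast, 27, 19 and 38 members lay below every NL-shGFP library. These counts for single libraries were not taken over all tested genes, so they do not show a trait particular to the members. The median coefficient of variation of a member was 13.0% for NL-shGFP, 57.5% for FL-shGFP and 47.5% for FL-shAlpl, beside 15.6%, 24.5% and 23.6% over all tested genes.

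**Figure D3:**
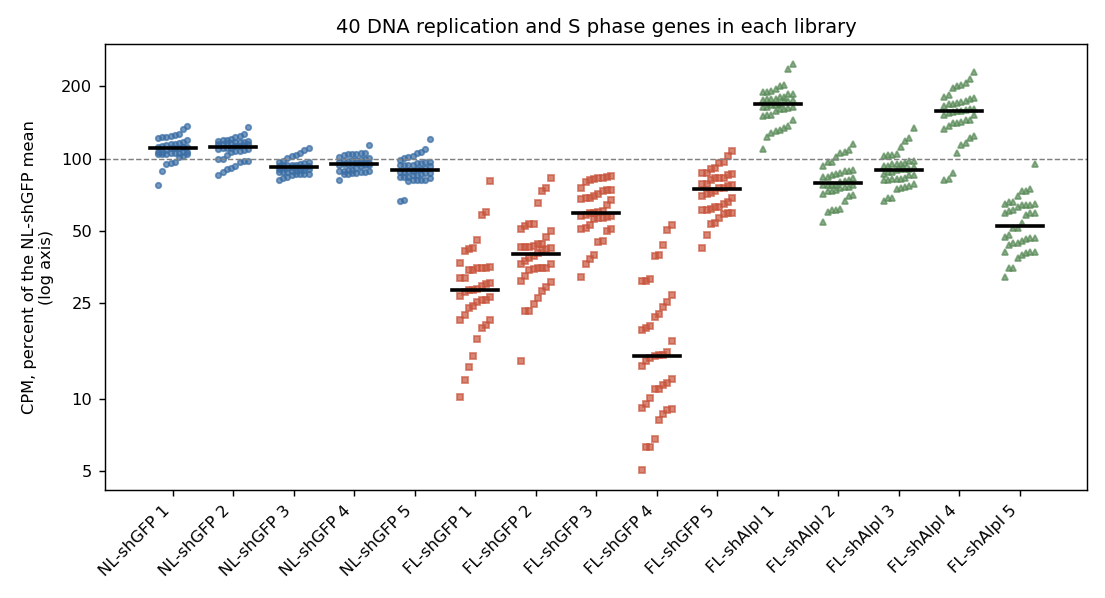
Level of the 40 members in each of the 15 libraries (x axis) as CPM in percent of the NL-shGFP mean (y axis, log scale), with 1 point per gene, a black bar at the median and a dashed line at 100%. FL-shGFP replicate 4 is lowest, with a median of 15.1%, and FL-shAlpl replicates 1 and 4 are highest, with medians of 169% and 158%.

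Markers of other cells moved with the same groups, and their part in the result was not tested. For the counts below, 25.1% of all tested genes were called higher and 21.6% lower in FL-shGFP against NL-shGFP. In FL-shAlpl against FL-shGFP the shares were 18.0% higher and 17.9% lower. Summed over 13 stem cell markers, levels ran over 401 to 556 CPM across NL-shGFP, 149 to 256 across FL-shGFP and 272 to 442 across FL-shAlpl, with 12 of 13 lower in FL-shGFP and 11 higher in FL-shAlpl over it. The 12 surface colonocyte markers summed to 3180 to 5974 CPM, 8104 to 20892 and 4341 to 8316 in the same order, with 9 higher in FL-shGFP and 8 lower in FL-shAlpl over it. FL-shGFP replicate 4, where the members were lowest, had the highest colonocyte sum, and replicate 5, where they were highest in that group, had the lowest. In NL-shGFP, by contrast, replicates 1 and 2 had the highest member medians and the highest sums (5974 and 5805 CPM). NL-shGFP replicate 5 was lowest in both (3180 CPM). In FL-shAlpl, replicate 1 had the highest member median and the lowest sum (4341 CPM). The members were lowest in FL-shAlpl replicate 5 (7452 CPM), but replicate 2 had the highest sum (8316 CPM). The 20 immune cell markers summed to 142 to 404, 541 to 1182 and 115 to 380 CPM, with 14 higher in FL-shGFP and 13 lower in FL-shAlpl over it. The 15 stromal, muscle and vessel markers summed to 13.6 to 61.0, 62.5 to 362 and 24.5 to 305 CPM, highest in FL-shGFP replicate 4 and, in FL-shAlpl, replicate 5, and 7 of the 14 tested were higher in FL-shGFP and 4 lower in FL-shAlpl over it. The 10 epithelial markers that check the tissue label summed to 9631 to 11768, 11557 to 16910 and 10547 to 16539 CPM. No marker of these lists was at 0 in all libraries.

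**Figure D4:**
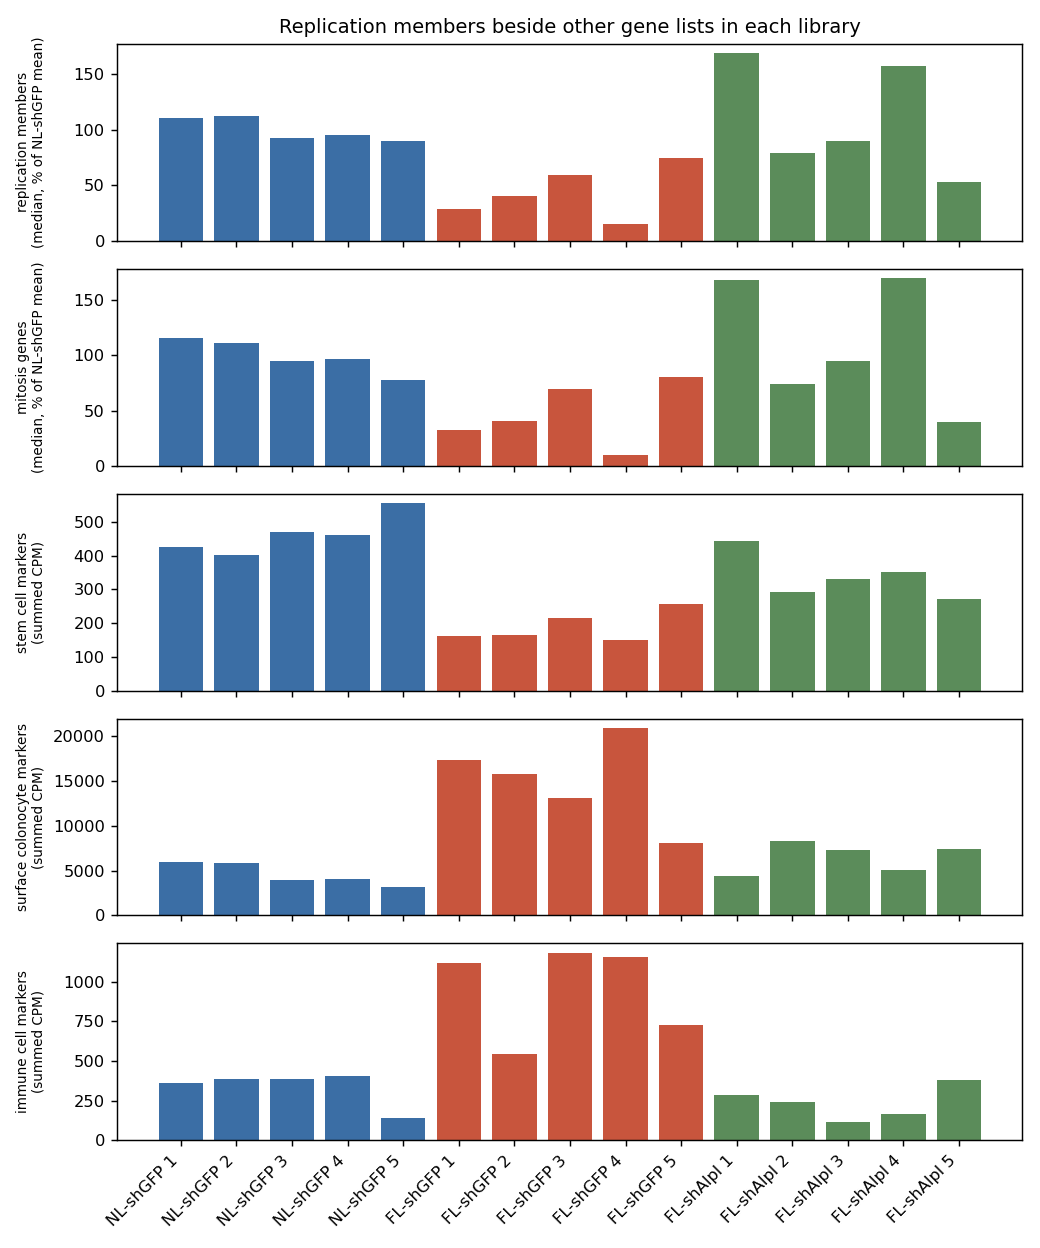
Bars for each of the 15 libraries, from the top: the median level of the 40 replication members and of 25 mitosis genes (percent of the NL-shGFP mean) and the summed CPM of stem cell, surface colonocyte and immune cell markers. The mitosis median is lowest, at 9.79%, in FL-shGFP replicate 4, the library with the lowest replication median and the highest colonocyte sum (20892 CPM). Within NL-shGFP, the replication median and the colonocyte sum are both lowest in replicate 5 (89.8% and 3180 CPM).

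All 6 subunits of the Mcm2-7 helicase ring fell in FL-shGFP (median log2 fold change -1.28) and all 6 rose in FL-shAlpl over FL-shGFP (median 1.5). Levels are in CPM, counts scaled to the library size after TMM normalization, in the order of replicates 1 to 5. Mcm4 measured 48.8, 43.3, 42.3, 43.8 and 45.7 CPM across NL-shGFP, 15.7, 19.3, 25.8, 10.9 and 33.7 across FL-shGFP and 85.8, 36.5, 46.2, 70.7 and 28.1 across FL-shAlpl. Every FL-shGFP library was below all of NL-shGFP, and in FL-shAlpl only replicate 5 came down to the FL-shGFP range. Mcm4 fell by 1.08 ± 0.30 (log2, standard error, edgeR adjusted p = 0.00967), rose by 1.34 ± 0.31 in FL-shAlpl (edgeR adjusted p = 0.00454) and ended 0.26 ± 0.30 from NL-shGFP (edgeR adjusted p = 0.611). Mcm6, the most abundant ring subunit per length (mean FPKM 16.8), measured 100.5, 104, 78.6, 83.6 and 77.8 CPM across NL-shGFP, 23.7, 32.4, 56.9, 10.4 and 64.1 across FL-shGFP and 151, 74.7, 92.4, 151 and 52.9 across FL-shAlpl. Its replicates in FL-shGFP spanned a wider range than Mcm4 did, and its log2 fold changes were -1.24 ± 0.40 and 1.48 ± 0.40 (edgeR adjusted p = 0.0189 and 0.0112). Mcm2 measured 61.4, 59.6, 52.1, 49.9 and 54.6 CPM across NL-shGFP, 9.89, 20.3, 29.3, 5.62 and 36.6 across FL-shGFP and 83.8, 43.3, 48.2, 96.4 and 35.7 across FL-shAlpl. Again FL-shGFP lay below NL-shGFP and only FL-shAlpl replicate 5 overlapped FL-shGFP, and Mcm2 had log2 fold changes of -1.44 ± 0.41 and 1.59 ± 0.41 (edgeR adjusted p = 0.00992 and 0.00855). Mcm3, Mcm5 and Mcm7 fell by 1.31 ± 0.43, 1.35 ± 0.47 and 1.0 ± 0.40 and rose by 1.53 ± 0.43, 1.59 ± 0.47 and 1.33 ± 0.40. The Mcm7 fall was next to the threshold (edgeR adjusted p = 0.0495) and did not pass in 10 of the 15 fits that each left out 1 library. Without FL-shGFP replicate 1, edgeR adjusted p was 0.0525 for Mcm3, 0.0721 for Mcm5 and 0.113 for Mcm7, and without FL-shAlpl replicate 4 the rises of Mcm5 and Mcm7 had 0.0556 and 0.0548.

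**Figure D5:**
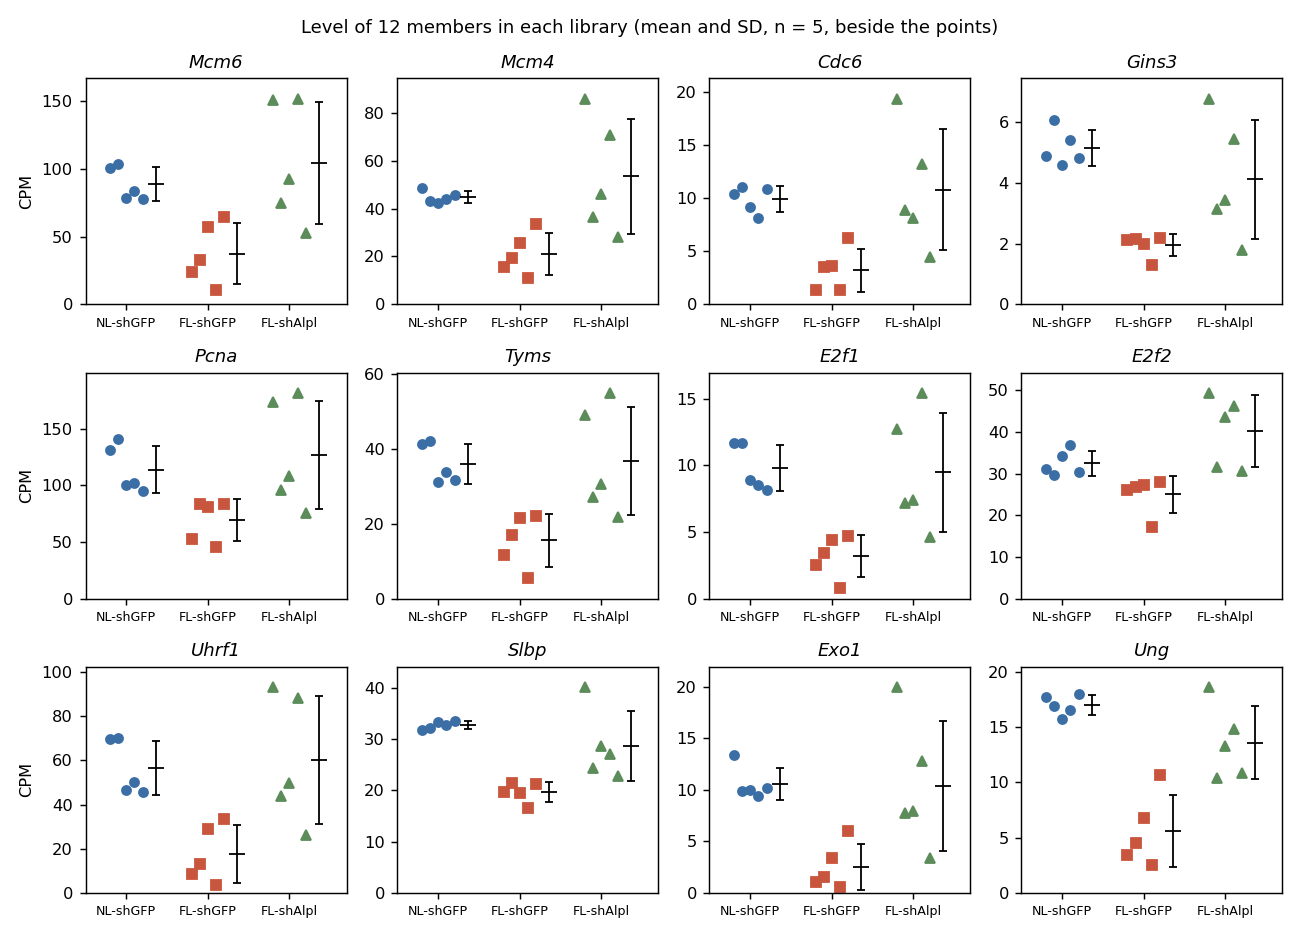
CPM (y axes, each from 0) of 12 members in each library of the 3 groups, with the mean and SD (n = 5) beside the points. E2f2 and Slbp are the members whose FL-shAlpl libraries all lie above all of FL-shGFP, and FL-shAlpl replicates 1 and 4 reach 151 CPM for Mcm6.

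The 3 licensing genes all fell in FL-shGFP and all rose in FL-shAlpl over FL-shGFP (medians -0.97 and 1.31). Cdc6, the ATPase that helps load the Mcm ring, measured 10.4, 11, 9.22, 8.13 and 10.9 CPM across NL-shGFP, 1.36, 3.49, 3.63, 1.37 and 6.25 across FL-shGFP and 19.4, 8.9, 8.12, 13.2 and 4.45 across FL-shAlpl. FL-shGFP lay wholly below NL-shGFP, and FL-shAlpl met it only at replicate 5, below the highest FL-shGFP library. Cdc6 fell 3.07-fold (log2 -1.62 ± 0.42, edgeR adjusted p = 0.00575) and rose 3.34-fold (log2 1.74 ± 0.42, edgeR adjusted p = 0.00585). Cdt1, its partner in loading, measured 21, 24.9, 18.1, 18.8 and 19.7 CPM across NL-shGFP, 6.08, 8.62, 16.4, 4.05 and 17.1 across FL-shGFP and 38.1, 18.3, 16.9, 41.7 and 15.3 across FL-shAlpl. Cdt1 fell by 0.97 ± 0.38 (edgeR adjusted p = 0.0465) and rose by 1.31 ± 0.38 (edgeR adjusted p = 0.0157), with FL-shAlpl replicates 3 and 5 inside the FL-shGFP range. Orc1, the largest subunit of the origin recognition complex, fell by 0.73 ± 0.29 and rose by 0.78 ± 0.29, close to the threshold both times (edgeR adjusted p = 0.0492 and 0.0453). The Cdt1 fall did not pass in 8 of the 15 fits without 1 library and the Orc1 fall in 9, with the highest edgeR adjusted p (0.108 and 0.115) without FL-shGFP replicate 1. The Orc1 rise did not pass in 12 of the 15, with the highest edgeR adjusted p, 0.116, without FL-shAlpl replicate 4.

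Of the 5 genes that switch the helicase on, all fell (median -1.33) and 4 rose (median of the 5, 1.30). Gins3, a GINS subunit, measured 4.89, 6.08, 4.58, 5.4 and 4.83 CPM across NL-shGFP, 2.13, 2.15, 1.98, 1.31 and 2.18 across FL-shGFP and 6.77, 3.15, 3.43, 5.44 and 1.81 across FL-shAlpl. The FL-shGFP libraries other than replicate 4 lay close together, below all of NL-shGFP, and only FL-shAlpl replicate 1 exceeded NL-shGFP. Gins3 fell by 1.4 ± 0.29 (edgeR adjusted p = 0.00125), rose by 1.08 ± 0.28 (edgeR adjusted p = 0.00931) and had the lowest fitted value of all members against NL-shGFP, -0.32 ± 0.28 (edgeR adjusted p = 0.466). Gins1, another GINS subunit, measured 7.92, 10.1, 6.08, 7.2 and 6.03 CPM across NL-shGFP, 1.79, 2.43, 3.85, 2.32 and 4.39 across FL-shGFP and 12.1, 6.37, 5.69, 10.2 and 3.31 across FL-shAlpl. Its log2 fold changes were -1.33 ± 0.32 and 1.35 ± 0.32 (edgeR adjusted p = 0.00392 and 0.00568), with FL-shAlpl replicate 5 inside the FL-shGFP range. Cdc45, the third part of the active helicase, fell by 1.51 ± 0.48 and rose by 1.42 ± 0.48 (edgeR adjusted p = 0.0179 and 0.0302), and its rise did not pass in 3 of the 15 fits without 1 library (at most 0.0873, without FL-shAlpl replicate 4). Gins2 fell by 0.93 ± 0.36 and rose by 1.3 ± 0.36, but 67.3% of its exon bases lie under Gse1 on the other strand. The Gins2 fall did not pass in 8 of the 15 fits (edgeR adjusted p up to 0.102, without FL-shGFP replicate 1). Mcm10, a factor needed for helicase activation, fell by 1.22 ± 0.37 (edgeR adjusted p = 0.0146), while its difference in FL-shAlpl over FL-shGFP, 0.92 ± 0.37, did not pass (edgeR adjusted p = 0.0629).

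Among the 8 genes of polymerases, clamp and Okazaki fragment processing, 4 fell (median of the 8, -1.01) and all 8 rose (median 1.29). Pola1, the catalytic subunit of polymerase alpha that starts each strand, measured 24.2, 22.3, 18.2, 19.5 and 13 CPM across NL-shGFP, 4.91, 4.5, 11.3, 2.14 and 13.9 across FL-shGFP and 32.7, 17.2, 21.7, 30.3 and 11.6 across FL-shAlpl. FL-shGFP replicate 5 reached the lowest NL-shGFP library, and the log2 fold changes were -1.4 ± 0.42 and 1.62 ± 0.42 (edgeR adjusted p = 0.0133 and 0.00869). Pcna, the sliding clamp and the most abundant member per length, measured 131, 141, 101, 102 and 94.9 CPM across NL-shGFP, 52.6, 83.9, 81.3, 45.3 and 84 across FL-shGFP and 174, 95.8, 108, 182 and 75.4 across FL-shAlpl. Its change was one of the smaller ones, a fall of 0.72 ± 0.24 and a rise of 0.87 ± 0.25 (edgeR adjusted p = 0.0262 and 0.0137). The primase subunit Prim1 fell by 1.46 ± 0.44 and rose by 1.44 ± 0.43. Fen1, the flap nuclease of Okazaki fragments, fell by 1.18 ± 0.37 and rose by 1.26 ± 0.37, but 84.2% of its exon bases lie under genes on the other strand. Pole, Rfc3, Rfc4 and Lig1 (the leading-strand polymerase, a pair of clamp loader subunits and the ligase) did not pass in FL-shGFP, at -1.09, -0.52, -0.89 and -0.93 with edgeR adjusted p = 0.0743, 0.0835, 0.0583 and 0.0611. All 4 passed in FL-shAlpl, rising by 1.29, 0.76, 1.3 and 1.28 (edgeR adjusted p = 0.0489, 0.0222, 0.0146 and 0.0197). The Pcna fall did not pass in 4 of the 15 fits without 1 library (edgeR adjusted p up to 0.0665, without FL-shGFP replicate 1). Of the rises, that of Pole did not pass in 12 fits, Rfc3 in 4 and Lig1 in 2 (edgeR adjusted p up to 0.123, 0.0636 and 0.0551, each without FL-shAlpl replicate 4), and Prim1 and Fen1 in 1 fit each (0.0549 and 0.0554, without FL-shAlpl replicate 1).

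Of the 4 genes of deoxynucleotide supply, Tyms and Rrm1 fell (median of the 4, -0.97) and also rose (median of the 4, 1.16). Tyms, thymidylate synthase, measured 41.1, 42, 31.2, 33.7 and 31.5 CPM across NL-shGFP, 11.5, 16.9, 21.5, 5.5 and 22.1 across FL-shGFP and 49.1, 27.2, 30.6, 54.8 and 21.8 across FL-shAlpl. It fell by 1.21 ± 0.32 (edgeR adjusted p = 0.00757), rose by 1.24 ± 0.32 (edgeR adjusted p = 0.00952) and ended 0.031 ± 0.32 from NL-shGFP, with FL-shAlpl replicate 5 overlapping FL-shGFP. Rrm1, the large subunit of ribonucleotide reductase, fell by 1.09 ± 0.38 and rose by 1.32 ± 0.39 (edgeR adjusted p = 0.0303 and 0.0168). The Rrm1 fall did not pass in 5 of the 15 fits without 1 library (edgeR adjusted p up to 0.0742, without FL-shGFP replicate 1). Rrm2, the small subunit whose supply limits the enzyme in S phase, measured 52.1, 52.4, 40.2, 39.7 and 39.9 CPM across NL-shGFP, 12.8, 19.9, 38, 13.9 and 38.9 across FL-shGFP and 111, 30.1, 37.2, 64.9 and 18.1 across FL-shAlpl. Although FL-shGFP lay below NL-shGFP throughout, Rrm2 did not pass in either comparison (-0.86 ± 0.42 and 1.08 ± 0.43, edgeR adjusted p = 0.108 and 0.0595), and FL-shAlpl replicates 2, 3 and 5 overlapped FL-shGFP. Tk1, the S phase thymidine kinase, gave -0.80 ± 0.41 and 0.99 ± 0.41 and did not pass either (edgeR adjusted p = 0.123 and 0.0718).

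Of the 5 cyclin E and E2F genes, which act upstream of the rest, 4 fell (median of the 5, -1.16) and all 5 rose (median 1.32). E2f1, an activator E2F, measured 11.7, 11.7, 8.9, 8.5 and 8.19 CPM across NL-shGFP, 2.52, 3.43, 4.43, 0.803 and 4.69 across FL-shGFP and 12.7, 7.19, 7.42, 15.4 and 4.62 across FL-shAlpl. FL-shGFP was wholly below NL-shGFP, and E2f1 fell by 1.62 ± 0.39 and rose by 1.57 ± 0.39 (edgeR adjusted p = 0.00374 and 0.00675). E2f2, also an activator, measured 31, 29.5, 34.2, 37 and 30.4 CPM across NL-shGFP, 26.1, 26.9, 27.2, 17.1 and 27.9 across FL-shGFP and 49.3, 31.6, 43.5, 46.3 and 30.7 across FL-shAlpl. All its FL-shAlpl libraries exceeded all of FL-shGFP (0.69 ± 0.15, edgeR adjusted p = 0.00388). Its FL-shGFP libraries lay below all of NL-shGFP as well, but that difference, -0.37 ± 0.15, was just outside the threshold (edgeR adjusted p = 0.0574). Ccne2, a cyclin E, measured 10.3, 8.75, 9.35, 9.56 and 10.3 CPM across NL-shGFP, 3.38, 5.05, 4.35, 3.81 and 5.91 across FL-shGFP and 15.9, 8.42, 9.14, 7.85 and 4.48 across FL-shAlpl. Ccne2 fell by 1.1 ± 0.25 and rose by 1.02 ± 0.25 (edgeR adjusted p = 0.00278 and 0.00656), with only FL-shAlpl replicate 1 above NL-shGFP. The other cyclin E, Ccne1, fell by 1.28 ± 0.44 and rose by 1.41 ± 0.44, and E2f8, a repressor E2F that is itself made in S phase, fell by 1.16 ± 0.44 and rose by 1.32 ± 0.44. The E2f8 fall did not pass in 9 of the 15 fits without 1 library and the Ccne1 fall in 1, with edgeR adjusted p of 0.0975 and 0.0616 without FL-shGFP replicate 1. Their rises did not pass in 5 and 3 fits, with edgeR adjusted p of 0.0834 and 0.0625 without FL-shAlpl replicate 1.

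Of the 5 chromatin and histone supply genes, 3 fell (median of the 5, -1.16) and all 5 rose (median 1.51). Slbp, the protein that binds the stem-loop of histone mRNAs, measured 31.8, 32.1, 33.4, 32.7 and 33.4 CPM across NL-shGFP, 19.6, 21.4, 19.5, 16.6 and 21.2 across FL-shGFP and 40, 24.2, 28.6, 27 and 22.8 across FL-shAlpl. Its FL-shGFP libraries overlapped neither the NL-shGFP nor the FL-shAlpl libraries. Slbp fell by 0.73 ± 0.13 (edgeR adjusted p = 0.000479) and rose by 0.54 ± 0.13 (edgeR adjusted p = 0.00589), while 4 of the 5 FL-shAlpl libraries stayed under all of NL-shGFP (-0.19 ± 0.13, edgeR adjusted p = 0.334). Without FL-shAlpl replicate 1, the Slbp difference from NL-shGFP passed (-0.35 ± 0.097, edgeR adjusted p = 0.0207). Uhrf1, which carries DNA methylation over to new strands, measured 69.5, 70, 46.8, 50.3 and 45.9 CPM across NL-shGFP, 8.53, 13.1, 28.9, 3.57 and 33.5 across FL-shGFP and 93, 43.8, 49.6, 88.2 and 26.4 across FL-shAlpl. It fell 3.21-fold and rose 3.43-fold (log2 -1.68 ± 0.49 and 1.78 ± 0.49, edgeR adjusted p = 0.0112 and 0.0121), with FL-shAlpl replicate 5 inside the FL-shGFP range. Chaf1a, the large subunit of chromatin assembly factor 1, measured 22.7, 24.7, 19, 20.2 and 20.2 CPM across NL-shGFP, 5.21, 8.43, 12.3, 2.44 and 12.6 across FL-shGFP and 34.3, 16.5, 20, 37.8 and 11 across FL-shAlpl. FL-shGFP lay below NL-shGFP and FL-shAlpl replicate 5 lay inside the FL-shGFP range, with log2 fold changes of -1.38 ± 0.39 and 1.54 ± 0.39 (edgeR adjusted p = 0.0104 and 0.00822). However, 52.5% of Chaf1a exon bases lie under Ubxn6 on the other strand. Chaf1b, its partner, and Hells, a chromatin remodeller, did not pass in FL-shGFP (-0.89 and -1.16, edgeR adjusted p = 0.0575 and 0.0550) and rose in FL-shAlpl (1.19 and 1.51, edgeR adjusted p = 0.0209 and 0.0223). The rises of Chaf1b and Hells did not pass in 3 and 3 of the 15 fits without 1 library (edgeR adjusted p up to 0.0581 without FL-shAlpl replicate 4 and 0.0702 without FL-shAlpl replicate 1).

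The repair genes made in S phase and Dtl, which directs the destruction of Cdt1, had the largest medians for the fall: 3 of the 4 fell (median of the 4, -1.5) and all 4 rose (median 1.48). Ung, the uracil-DNA glycosylase, measured 17.7, 16.9, 15.7, 16.6 and 18 CPM across NL-shGFP, 3.45, 4.46, 6.77, 2.56 and 10.7 across FL-shGFP and 18.6, 10.4, 13.3, 14.8 and 10.9 across FL-shAlpl. Ung fell by 1.6 ± 0.30 (edgeR adjusted p = 0.000717) and rose by 1.28 ± 0.30 (edgeR adjusted p = 0.00494), and 4 of the 5 FL-shAlpl libraries lay under all of NL-shGFP. Exo1, an exonuclease of mismatch repair, is named because its fold changes turned out to be the largest of the 40, and it is also the member with the lowest FPKM. It measured 13.3, 9.87, 10, 9.37 and 10.2 CPM across NL-shGFP, 1.08, 1.52, 3.41, 0.536 and 5.97 across FL-shGFP and 19.9, 7.78, 7.91, 12.8 and 3.41 across FL-shAlpl, a fall of 4.18-fold and a rise of 4.11-fold (log2 -2.06 ± 0.54 and 2.04 ± 0.54, edgeR adjusted p = 0.00659 and 0.0101). Dtl fell by 1.41 ± 0.50 and rose by 1.68 ± 0.50, and Brca1, of homologous recombination, did not pass in FL-shGFP (-1.08 ± 0.45, edgeR adjusted p = 0.0575) but rose by 1.2 ± 0.45 (edgeR adjusted p = 0.0469). Leaving out 1 library ended the Dtl fall in 4 of 15 fits (edgeR adjusted p up to 0.0677, without FL-shGFP replicate 2). It ended the Brca1 rise in 12 and the Dtl rise in 1, with edgeR adjusted p of 0.123 and 0.0506 without FL-shAlpl replicate 1.

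The fold changes were also read by promoter letters. In FL-shGFP against NL-shGFP, 11 of the 15 members with an E2F motif fell (median -1.24) and 14 of the 19 without one fell (median -1.18). In FL-shAlpl against FL-shGFP, 15 of 15 and 16 of 19 rose (medians 1.48 and 1.28). The difference between these subsets was not tested.

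Replication genes outside the 40 went the same way with smaller medians. Of 54 such genes, 32 fell in FL-shGFP and 2 rose (median -0.72), beside 21.6% of all tested genes called lower and 25.1% called higher. In FL-shAlpl over FL-shGFP, 39 rose and none fell (median 0.84), beside 18.0% called higher and 17.9% called lower. Pole4 and Pole2, accessory subunits of polymerase epsilon, fell by 0.58 ± 0.093 and 1.76 ± 0.32 and rose by 0.69 ± 0.093 and 1.77 ± 0.32 (edgeR adjusted p = 0.000231, 0.000605, 0.000172 and 0.00114). Tipin, of the fork protection complex, and the clamp loader subunits Rfc1 and Rfc2 fell by 1.22 ± 0.26, 0.57 ± 0.13 and 0.94 ± 0.20 and rose by 1.32 ± 0.26, 0.65 ± 0.13 and 0.66 ± 0.20. Gmnn, the geminin that blocks Cdt1, fell by 0.72 ± 0.22 and rose by 0.83 ± 0.22 (edgeR adjusted p = 0.0151 and 0.0101). Named after their values were seen, the 2 genes that rose in FL-shGFP were Rrm2b, the p53-regulated subunit of ribonucleotide reductase (0.63 ± 0.19, edgeR adjusted p = 0.0153), and Orc3 (0.28 ± 0.10, edgeR adjusted p = 0.0344). Cdc7, the kinase that fires licensed origins, was likewise singled out because it was the only one of the 54 that was lower in FL-shAlpl than in NL-shGFP. It measured 15, 14.2, 17.7, 19.5 and 19.7 CPM across NL-shGFP, 5.58, 7.16, 8.65, 4.11 and 11 across FL-shGFP and 13.7, 4.16, 6.98, 10.4 and 4.28 across FL-shAlpl. It fell by 1.24 ± 0.32 in FL-shGFP (edgeR adjusted p = 0.00598) and differed by 0.11 ± 0.32 between FL-shAlpl and FL-shGFP (edgeR adjusted p = 0.807), which left it -1.12 ± 0.32 from NL-shGFP (edgeR adjusted p = 0.0247). In FL-shAlpl against NL-shGFP, 1 of the 54 was called lower and 1 higher, beside 8.12% and 9.31% of all tested genes.

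The G1/S regulators were mixed. Of 26 tested, 10 fell and 5 rose in FL-shGFP (median -0.26), beside 21.6% of all tested genes called lower and 25.1% called higher. In FL-shAlpl over FL-shGFP, 14 rose and 2 fell (median 0.40), beside 18.0% called higher and 17.9% called lower. Myc, a growth factor-induced driver of the cycle, measured 36.3, 36.8, 44.6, 44.7 and 67.1 CPM across NL-shGFP, 15.1, 12.9, 8.91, 11.1 and 17.5 across FL-shGFP and 55.9, 40.9, 44.5, 32.1 and 39.7 across FL-shAlpl. It fell by 1.81 ± 0.21 and rose by 1.7 ± 0.21 (edgeR adjusted p = 2.23e-05 and 8.75e-05). The cyclin D partner kinase gene Cdk6 and the cyclin D gene Ccnd1 fell by 1.32 ± 0.17 and 1.27 ± 0.24 and rose by 1.02 ± 0.17 and 1.46 ± 0.24, and the repressor E2f6 fell by 0.99 ± 0.22 and rose by 0.87 ± 0.21. Cdkn1a, the p21 inhibitor of cyclin kinases, went the other way: it measured 123, 135, 74.8, 79.7 and 43 CPM across NL-shGFP, 265, 203, 161, 337 and 98.4 across FL-shGFP and 69.7, 118, 91.1, 70.5 and 64.2 across FL-shAlpl. It rose by 1.22 ± 0.33 (edgeR adjusted p = 0.00784) and fell by 1.37 ± 0.33 (edgeR adjusted p = 0.00651). Rbl2, the retinoblastoma relative p130 of resting cells, rose by 0.62 ± 0.10 in FL-shGFP (edgeR adjusted p = 0.000265), did not pass between FL-shAlpl and FL-shGFP (-0.20 ± 0.10, edgeR adjusted p = 0.137) and was 0.42 ± 0.10 above NL-shGFP in FL-shAlpl (edgeR adjusted p = 0.0103).

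Mitosis genes, most of which act after S phase, were low and high in many of the same libraries. None of 25 rose and 7 fell in FL-shGFP (median -1.1), beside 25.1% of all tested genes called higher and 21.6% called lower. An unadjusted edgeR p under 0.05 was reached there by 19 of the 25 and by 9459 of all 17404 tested genes. In FL-shAlpl over FL-shGFP, 11 rose and none fell (median 1.24), beside 18.0% called higher and 17.9% called lower. The median mitosis gene stood at 32.6%, 40.6%, 69.3%, 9.79% and 80.5% of its NL-shGFP mean in FL-shGFP replicates 1 to 5 and at 169%, 74.1%, 94.5%, 170.0% and 39.4% in FL-shAlpl. Top2a, Bub1, Ube2c and Aurka fell by 1.42 ± 0.47, 1.37 ± 0.48, 1.35 ± 0.47 and 1.26 ± 0.44, and Plk1 by 0.66 ± 0.18 (edgeR adjusted p = 0.0228, 0.0288, 0.0291, 0.0299 and 0.00885). Mki67, which encodes the Ki-67 antigen of cycling cells, measured 437, 352, 331, 319.5 and 297 CPM across NL-shGFP, 118, 125, 264, 39 and 297 across FL-shGFP and 546, 269, 343, 502 and 131 across FL-shAlpl. It did not pass in either comparison (-1.04 ± 0.44 and 1.09 ± 0.44, edgeR adjusted p = 0.0663 and 0.0682).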

How the data were processed

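RNA from colonic crypts was sequenced in 15 samples, 3 groups of 5, with mRNA enrichment per the labels' protocols. The authors deposited a table of whole-number read counts per gene and a table of FPKM, and HISAT2 was used per the submitters' processing notes. Neither a version of it nor the counter, genome build, gene annotation or strand mode is given in the sources used here. Each deposited FPKM value was a count scaled by library size and gene length (relative spread up to 1.4e-06), so both tables hold the same reads. In each library 72.4% to 77.2% of the counts between 1 and 12 were even, so small counts may hold fewer molecules than they show. No value column lacked a sample.

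Counts of the 17404 genes that passed filterByExpr were fitted with edgeR 4.0.16 (R 4.3.3, robust quasi-likelihood, TMM factors) as 3 group means over all 15 samples (12 residual degrees of freedom). Tests of the 3 comparisons were two-sided, with p adjusted by Benjamini-Hochberg over all tested genes and a threshold of 0.05, and ± beside a log2 fold change is its standard error. Whether each replicate was its own animal is not in the labels, so p-values may measure only the spread between these samples. The members and lists were chosen with earlier results of these data known, and lists are described by counts and medians only.

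Values per sample are given, in each role group, for the member with the smallest p in FL-shGFP against NL-shGFP and the one with the highest mean FPKM, for up to 10 members called in the other comparisons, and as stated for others. From the 3 other cell cycle lists, up to 5 genes by the same p are named, with Mki67, Cdkn1a, Gmnn and Myc, and the 2 members on either side of the threshold are Orc1 and Mcm7 inside, Hells and E2f2 outside. The alternatives changed the scaling (RLE factors or library totals alone), the filter (none, or 1 CPM in 5 samples), the test (DESeq2 1.42.0, or limma-trend from limma 3.58.1 on log2 FPKM with 1 or 0.1 added) and the samples (only the 2 groups compared, a library left out at a time, or close NL-shGFP libraries summed). A replicate block and the removal of mitochondrially encoded genes were also tried. The code was tested on simulated counts. Figures used Python 3.11.15 and matplotlib 3.10.9.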

Additional observations from a re-analysis of the deposited data

Results flagged for a closer look

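In 4 of the 120 groups of 5 libraries checked (40 members in 3 groups), 1 library stood apart by Dixon's test, where chance alone gives about 1 in 20 groups. Gins3 was lowest in FL-shGFP replicate 4, at 1.31 CPM, and E2f2 was lowest in the same library, at 17.1 CPM. Exo1 was highest in NL-shGFP replicate 1, at 13.3 CPM, and Dtl was highest in that library too, at 21.8 CPM.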

How the results depend on the processing

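Across the 26 alternatives no member changed direction in FL-shGFP against NL-shGFP or in FL-shAlpl against FL-shGFP, and the single-gene calls that changed were 160 in the first and 120 in the second of 1040 each. Of the 30 falls, 19 held whichever library was left out and 15 held under all 26 alternatives, and of the 37 rises, 22 and 20 did. The number of members called lower in FL-shGFP was 30 and became 19 with library totals alone, with no filter on low counts and with a replicate block, and 15 with the close NL-shGFP libraries summed. Over all tested genes, the number called lower was 3752 and became 2347, 3359, 3291 and 2728 in that order. With 1 library left out, the number of members ran from 19 (without FL-shGFP replicate 1) to 38 (without FL-shGFP replicate 5). All tested genes gave 2980 and 4281 in those 2 fits. The number of members called higher in FL-shAlpl over FL-shGFP was 37 and became 24 in a fit of only the 2 groups and 24 with a replicate block. It ran from 25 (without FL-shAlpl replicate 1) to 40 with 1 library left out. Over all tested genes, 3141 were called higher, and this became 2001, 2425 and, without FL-shAlpl replicate 1, 2475. In FL-shAlpl against NL-shGFP the number of members called lower ran from 0 to 1. The 1 was Slbp without FL-shAlpl replicate 1 (log2 fold change -0.35 ± 0.097, edgeR adjusted p = 0.0207). The cause of these changes was not tested.

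Deviations of same-numbered libraries correlated at -0.35 to 0.33 (median 0.066 over 15 pairs), beside -0.32 to 0.38 (median -0.012 over 60 pairs) for other numbers. These ranges are much alike and do not tell whether a replicate number marked a shared handling step. The replicate block shows how the calls change if it did. With library totals alone, 65.8% of all called genes were higher in FL-shGFP than in NL-shGFP, beside 53.8% with TMM factors, and 75.0% of those for FL-shAlpl against NL-shGFP were higher, beside 53.4%. The latter share was 70.4% by limma-trend with 1 added to FPKM and 71.3% with 0.1 added. Library totals also moved the median of all tested genes in FL-shAlpl against NL-shGFP from 0.052 to 0.19, and that of the members from 0.16 to 0.33. With the close NL-shGFP libraries summed, 637 genes were higher and 703 lower there, against 1621 and 1414.

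In FL-shAlpl against NL-shGFP, where no member passed, some fitted values changed sign. Library totals alone gave 0.077 in Cdc45, 0.14 in Prim1, 0.083 in Ccne2, 0.11 in E2f1 and 0.14 in Exo1. Limma-trend on log2(FPKM + 1) gave 0.015 in Prim1, 0.0093 in E2f1 and 0.0075 in Exo1, and the replicate block gave -0.016 in Gins1 and -0.039 in Fen1. With 1 library left out at a time, the log2 fold changes ran as follows: Brca1 -0.12 to 0.33, Ccne1 -0.15 to 0.34, Ccne2 -0.37 to 0.10, Cdc45 -0.37 to 0.12, Cdc6 -0.20 to 0.32, Chaf1a -0.060 to 0.35, E2f1 -0.29 to 0.13, E2f8 -0.063 to 0.38, Exo1 -0.40 to 0.20, Fen1 -0.30 to 0.29, Gins1 -0.22 to 0.20, Mcm2 -0.073 to 0.29, Mcm3 -0.035 to 0.40, Mcm5 -0.083 to 0.45, Orc1 -0.081 to 0.15, Pcna -0.0084 to 0.29, Pole -0.029 to 0.39, Prim1 -0.26 to 0.15, Rrm2 -0.26 to 0.44, Tk1 -0.12 to 0.40, Tyms -0.16 to 0.17 and Uhrf1 -0.12 to 0.28. The lowest count of a member in a library was 18, and the common biological coefficient of variation over all tested genes was 30.2%. The effect of depth on the calls was not tested. With 5 libraries a group, simulated 2-fold changes were called in 63, 67 and 66 of 100 genes in the 3 comparisons, in the order of the report. Unlike these data, the simulation changed few genes and gave each gene the same spread in every group. These shares therefore do not give the power for the members.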
